A study of Mus musculus with 12 samples.

Results

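C-type lectins and Fc receptors are surface receptors through which leukocytes read carbohydrates, damaged cells and antibody. The genes described here are those whose symbol in the deposited table begins with Clec, Fcgr, Fcer or Cd300 in the family's numbered form, or with Siglec. There were 58 such genes among 53801 listed, and 40 of the 58 passed the filter on low counts, among 15306 genes tested. RNA sequencing had been done on whole hearts of adult male C57BL/6N mice, and 12 libraries were analysed, 4 in each of 3 groups. The Sham group had no ligation. In the Day 1 AMI and Day 7 AMI groups a branch of the left coronary artery had been tied permanently, and the hearts were taken 1 day and 7 days later. No transgene or deletion is given for these animals, and no harvest day is given for single Sham hearts. Each library is a different heart, named below by its group and replicate number.

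The receptors of this group pass opposite signals through short tyrosine motifs. Activating Fc receptors and lectins carry, or borrow from the adaptors FcRγ (*Fcer1g*) and DAP12 (*Tyrobp*), an ITAM, which Src-family kinases phosphorylate so that Syk docks and drives CARD9, NF-κB and phagocytosis. Inhibitory receptors carry an ITIM, which recruits the phosphatases SHP-1 (*Ptpn6*) and SHIP1 (*Inpp5d*) and damps the same pathway. Several lectins, among them Mincle (*Clec4e*), Dectin-1 (*Clec7a*) and DNGR-1 (*Clec9a*), also sense products of dying cells, while other proteins with the same fold sit on endothelium or in matrix.

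Levels are given as CPM, edgeR's scale on which a gene's count is divided by the size of its library after scaling by the trimmed mean of M values (TMM), for comparison of one gene between hearts, and as TPM, which is per transcript length, for comparison between genes. Libraries held between 23204551 and 32166517 counts, and 3 counts, taken as the floor of a library, equalled 0.0895 to 0.156 CPM. The floor and the intervals below cover counting error only. Whole heart RNA was dominated by heart muscle: the summed level of 7 cardiomyocyte markers ran from 65600 to 78100 CPM in Sham, 41300 to 52100 CPM at day 1 and 36300 to 41400 CPM at day 7. The summed level of 6 pan-leukocyte markers ran from 75.6 to 124 CPM in Sham, 252 to 350 CPM at day 1 and 256 to 410 CPM at day 7. Of the 6, 5 and then 6 were called higher than in Sham, beside 7.79% and then 15.3% of all genes tested. Since the members are largely leukocyte genes, more leukocytes and more RNA per leukocyte cannot be told apart in these bulk samples. Sham heart 2 stood apart in blood cell RNA, with 4140 CPM of erythroid markers against 462 to 1120 CPM in the other Sham hearts, and with 58.2 CPM of neutrophil markers against 2.77 to 31.7 CPM.

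On day 1 after infarction 19 of the 40 members tested (47.5%) were higher than in Sham, where 7.79% of all genes tested were, and 3 were lower (2.98% of all genes). At day 7 against Sham 25 members (62.5%) were higher, with 15.3% of all genes, and 3 were lower, with 5.88% of all genes. From day 1 to day 7 the share of members called higher, 4 of 40 (10%), was close to the 8.55% of all genes, and 3 (7.5%) were lower, with 2.69% of all genes. A gene was called at a change of 2-fold or more with a false discovery rate below 0.05 in edgeR's quasi-likelihood test, adjusted over all genes tested, and adjusted p-values below are from that test. They measure the spread between these hearts. The median log2 fold change of the members was 0.97 for Day 1 AMI against Sham, 0.41 for Day 7 AMI against Day 1 AMI and 1.43 for Day 7 AMI against Sham, beside -0.01, 0.02 and 0.03 over all genes tested. Pairs of these comparisons share a group of hearts, so their counts are not independent of each other. With library sizes alone as the scale, the median of all genes moved to 0.26, 0.15 and 0.43, and the members called higher and lower numbered 24 and 0, 9 and 3, and 27 and 1. On limma's log2(TPM + 1) scale the same numbers were 16 and 0, 4 and 1, and 21 and 0.

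**Figure D1:**
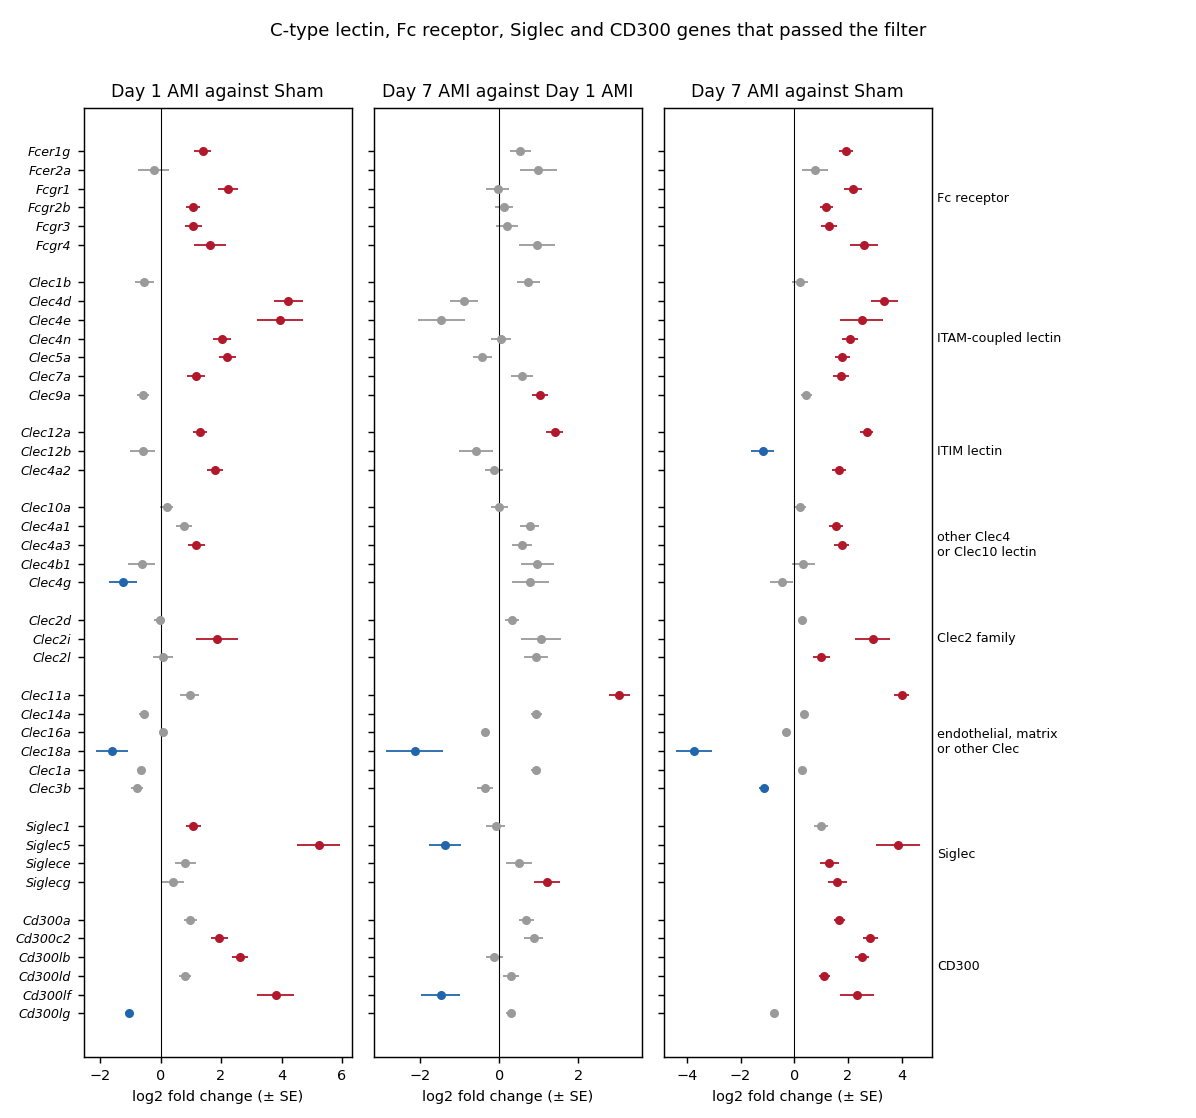
Log2 fold change (horizontal axis, with bars of 1 SE from edgeR) of the 40 members that passed the filter, grouped by role, for the 3 comparisons. Red points were called higher, blue points lower and grey points were not called; Fc receptors, except *Fcer2a* on day 1, and most ITAM-coupled lectins lie to the right of 0 in both comparisons with Sham, and *Clec11a* stands out in the comparison of Day 7 AMI with Day 1 AMI.

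All 3 activating Fcγ receptors tested, their adaptor and the inhibitory receptor rose by day 1, and their log2 fold changes from day 1 to day 7, from -0.04 for *Fcgr1* to 0.96 for *Fcgr4*, were not called. *Fcgr1* encodes CD64, the high-affinity receptor for monomeric IgG. It stood at 4.23, 4.39, 2.04 and 2.10 CPM in Sham hearts 1 to 4, at 13.1, 21.9, 11.1 and 13.7 CPM in the Day 1 AMI hearts and at 18.8, 10.7, 8.56 and 20 CPM in the Day 7 AMI hearts. Every infarcted heart was above every Sham heart, and the 2 infarcted groups overlapped. The log2 fold change of *Fcgr1* was 2.22 ± 0.33 (SE, n = 4 hearts per group, adjusted p = 0.000192) on day 1, a 4.67-fold rise, and 2.18 ± 0.33 (adjusted p = 6.64e-05) on day 7 against Sham.

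*Fcgr3* encodes CD16, the low-affinity activating receptor of macrophages, neutrophils and NK cells. Its level was 16.7, 17.8, 8.20 and 11.4 CPM in Sham, 27.8, 46.6, 19.9 and 20.6 CPM in Day 1 AMI and 40.2, 24.7, 29.0 and 38.6 CPM in Day 7 AMI hearts. Its log2 fold change against Sham was 1.08 ± 0.29 (adjusted p = 0.00802) on day 1 and 1.29 ± 0.29 (adjusted p = 0.00143) on day 7. Without Day 1 AMI heart 2, the highest of its group, the day 1 change of *Fcgr3* was 0.75, and without Sham heart 3 it was 0.91, both below the 2-fold minimum. *Fcgr4*, the mouse receptor for IgG2a and IgG2b on monocytes and macrophages, stood at 2.03, 2.14, 0.631 and 0.908 CPM in Sham, 3.21, 8.24, 2.88 and 3.50 CPM in Day 1 AMI and 7.67, 4.33, 5.31 and 17.5 CPM in Day 7 AMI hearts. Day 1 AMI heart 2 and Day 7 AMI heart 4 were far above the rest of their groups. Its log2 fold change was 1.64 ± 0.52 on day 1 (adjusted p = 0.0206) and 2.60 ± 0.52 on day 7 (adjusted p = 0.000572). The day 1 call of *Fcgr4* was lost without Day 1 AMI heart 2 (1.16, adjusted p = 0.0869), Sham heart 3 (1.40, adjusted p = 0.0596) or Sham heart 4 (1.47, adjusted p = 0.0597). The change of *Fcgr4* from day 1 to day 7 was called without Day 1 AMI heart 2 (1.44, adjusted p = 0.0199) and was 0.37 without Day 7 AMI heart 4. Without Day 7 AMI heart 4 the day 7 change against Sham was 2.01, still called (adjusted p = 0.00159).

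*Fcer1g*, the FcRγ chain on which *Fcgr1*, *Fcgr3*, *Fcgr4* and several lectins depend, had the highest TPM of all members after infarction. It stood at 15.3, 12.6, 6.06 and 6.74 CPM in Sham, 25.8, 34.7, 22.1 and 24.1 CPM in Day 1 AMI and 42.3, 30.7, 30.3 and 51.5 CPM in Day 7 AMI hearts, with no overlap between Sham and either infarcted group. Its log2 fold change was 1.39 ± 0.27 on day 1 (adjusted p = 0.00114) and 1.93 ± 0.27 on day 7 (adjusted p = 3.23e-05). In TPM it ranked 3 among the 58 members in Sham hearts, at 27.3 ± 11.5 (SD, n = 4), and the highest at both later times, at 90.5 ± 18.8 and 155 ± 47.4.

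The single inhibitory IgG receptor of the mouse, *Fcgr2b*, rose as well. Its level was 16.7, 18, 8.05 and 10.6 CPM in Sham, 31.2, 35.0, 21.2 and 24.8 CPM in Day 1 AMI and 32.0, 30.1, 23.8 and 36.2 CPM in Day 7 AMI hearts, without overlap between Sham and the infarcted groups. The log2 fold change was 1.07 ± 0.23 on day 1 (adjusted p = 0.00215) and 1.19 ± 0.23 on day 7 (adjusted p = 0.000446). The day 1 change of *Fcgr2b* dropped under 2-fold without Sham heart 3 (0.89), Sham heart 4 (0.97) or Day 1 AMI heart 2 (0.95). Of the 75-base stretches of *Fcgr3* transcripts 5.42% also occur in *Fcgr2b*. The reads were paired and longer than 75 bases, so how many of them could not be told apart is not known.

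Ratios of counts within a heart compare activating with inhibitory receptors independently of library scaling. These 9 tests were chosen after the values had been seen. The *Fcgr1*/*Fcgr2b* ratio was 0.253, 0.244, 0.253 and 0.199 in Sham, 0.42, 0.627, 0.522 and 0.553 in Day 1 AMI and 0.586, 0.357, 0.359 and 0.553 in Day 7 AMI hearts. All 8 infarcted hearts lay above all 4 Sham hearts, and the ratio was 2.22-fold higher on day 1 and 1.91-fold higher on day 7 than in Sham. Each had a two-sided exact permutation p of 0.0286, the smallest that 4 against 4 hearts can give, and 0.0857 after Benjamini-Hochberg adjustment over the 9 tests. The *Fcgr4*/*Fcgr2b* ratio was 0.122, 0.119, 0.0783 and 0.086 in Sham, 0.103, 0.235, 0.136 and 0.141 in Day 1 AMI and 0.24, 0.144, 0.223 and 0.483 in Day 7 AMI hearts. It was 2.48-fold higher on day 7 than in Sham (exact permutation p = 0.0286, adjusted 0.0857) and 1.48-fold higher on day 1 (exact permutation p = 0.114, adjusted 0.206). The *Fcgr3*/*Fcgr2b* ratio stayed between 0.82 and 1.33 in every heart, and its group means differed by a factor of 0.959 on day 1 (exact permutation p = 0.8) and 1.05 on day 7 (exact permutation p = 0.686). No difference in these ratios passed 0.05 after adjustment.

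**Figure D2:**
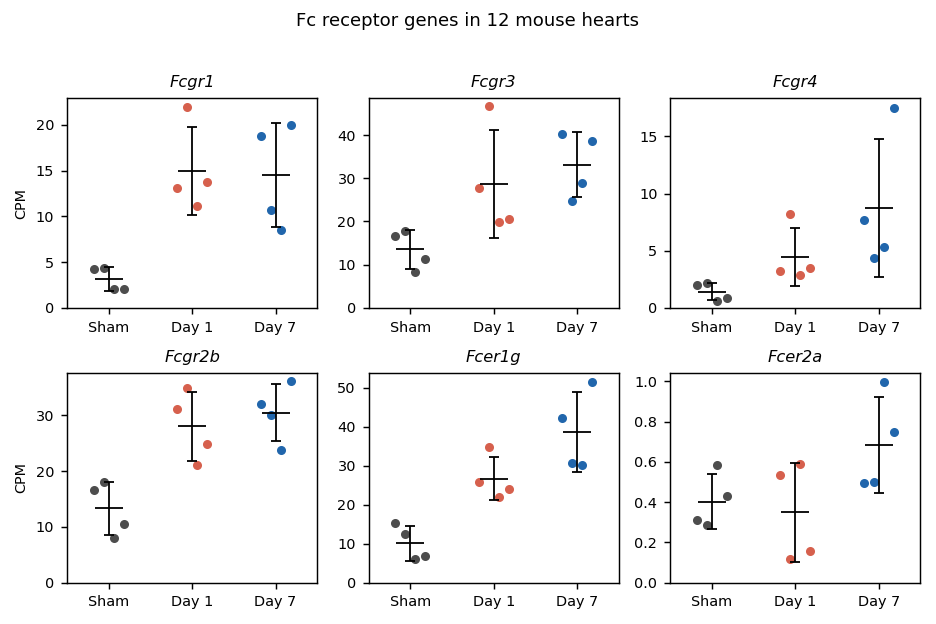
CPM (vertical axis, TMM-scaled) of 6 Fc receptor genes in the hearts of the 3 groups, 1 point per heart, with the group mean and SD as a bar. *Fcgr1*, *Fcgr3*, *Fcgr4*, *Fcgr2b* and *Fcer1g* are higher in every infarcted heart than in every Sham heart, and the groups of *Fcer2a* overlap.

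The upstream sequences of *Fcgr1* and of *Fcer1g* are shown because the receptor and its obligate adaptor rose together but differ in exact matches to the letters GAGGAA. Both are the 250 bases before the RefSeq start on GRCm38.p6, read 5′ to 3′ on the gene's strand, here the minus strand for both, at chr3:96293970-96294219 for *Fcgr1* and chr1:171234350-171234599 for *Fcer1g*. Capitals mark GAGGAA or its reverse complement, the letters searched here as PU.1-type sites.
Fcgr1: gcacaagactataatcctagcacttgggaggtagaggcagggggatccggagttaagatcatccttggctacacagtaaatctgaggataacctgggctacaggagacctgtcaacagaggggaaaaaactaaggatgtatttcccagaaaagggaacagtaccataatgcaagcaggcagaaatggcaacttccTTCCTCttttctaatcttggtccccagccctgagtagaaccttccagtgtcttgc
Fcer1g: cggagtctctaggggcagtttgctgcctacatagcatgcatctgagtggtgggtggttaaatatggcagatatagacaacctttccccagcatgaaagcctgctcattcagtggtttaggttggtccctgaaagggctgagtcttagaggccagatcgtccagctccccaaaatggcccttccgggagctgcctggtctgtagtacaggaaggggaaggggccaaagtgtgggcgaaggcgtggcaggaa
*Fcgr1* holds 1 such match, beginning 55 bases before the start, and *Fcer1g* holds none. The shorter letters GGAA, which also occur in the *Fcer1g* window, were not searched. Of the 58 members 46 were found in the table of RefSeq upstream windows, and 27 of the 46 (58.7%) held at least 1 match, against 23.1% of the 27025 windows of all genes of that length. The windows of *Cd300ld3*, *Cd300ld4* and *Cd300ld5* are near copies of each other and each count among the 27, so the windows are not independent. Among members tested the share was the same for those called higher on day 1 (11 of 17) as for those not called higher (11 of 17). A match describes letters in this window and not binding.

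The IgE receptors were near the limit of detection. *Fcer1a*, the IgE-binding chain of mast cells and basophils, did not pass the filter, with no counts in any Sham heart, 5, 7, 1 and 0 counts in the Day 1 AMI hearts and 0, 5, 4 and 4 counts in the Day 7 AMI hearts. Mast cell and basophil markers gave 8.97 to 14.1 CPM in Sham, 11 to 26.9 CPM in Day 1 AMI and 25.3 to 32.1 CPM in Day 7 AMI hearts. Of these markers 1 of 6 tested was called higher on day 7 against Sham, close to the 15.3% of all genes. Their part in the *Fcer1a* counts was not tested. *Fcer2a*, the low-affinity IgE receptor CD23 of B cells, stood at 0.313, 0.287, 0.582 and 0.430 CPM in Sham, 0.535, 0.119, 0.589 and 0.158 CPM in Day 1 AMI and 0.493, 0.502, 0.996 and 0.748 CPM in Day 7 AMI hearts. The 3 groups overlapped, and its log2 fold change of 0.76 ± 0.48 on day 7 against Sham was not called (adjusted p = 0.185).

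Of 7 lectins that signal through an ITAM or a related motif, 5 were called higher on day 1 (7.79% of all genes tested). The same 5 were called higher on day 7 than in Sham (15.3% of all genes tested). From day 1 to day 7 the edgeR fit described above called 0 of these 5 and DESeq2 0, with 2, *Clec4d* and *Clec4e*, lower at an unadjusted p below 0.05. Some other fits called *Clec4d* or *Clec4e* lower, as given below. *Clec4d* encodes MCL, the partner with which Mincle forms a complex. Its level was 0.522, 0.329, 0.194 and 0 CPM in Sham, 5.35, 7.16, 4.02 and 3.25 CPM in Day 1 AMI and 3.82, 2.90, 1.59 and 2.35 CPM in Day 7 AMI hearts. All infarcted hearts exceeded all Sham hearts. Its log2 fold change was 4.23 ± 0.49 on day 1 (adjusted p = 4.24e-05), 3.34 ± 0.51 on day 7 against Sham (adjusted p = 6.03e-05) and -0.89 ± 0.36 on day 7 against day 1, which was not called (adjusted p = 0.0581). That change of *Clec4d* was called without Day 1 AMI heart 4 (-1.05, adjusted p = 0.0387) or Day 7 AMI heart 1 (-1.12, adjusted p = 0.0335).

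*Clec4e*, Mincle, binds the nuclear protein SAP130 released by dead cells as well as microbial glycolipids. It stood at 0.104, 0.616, 0.0485 and 0.0478 CPM in Sham, 4.51, 4.92, 2.49 and 2.02 CPM in Day 1 AMI and 0.955, 0.618, 0.332 and 3.13 CPM in Day 7 AMI hearts. Sham heart 2 held most of the Sham signal, and on day 7 heart 4 stood above 2 of the 4 Day 1 AMI hearts while the other day 7 hearts were below 1 CPM. The log2 fold change of *Clec4e* was 3.96 ± 0.76 on day 1 (adjusted p = 0.00104), -1.45 ± 0.59 from day 1 to day 7 (adjusted p = 0.0549, not called) and 2.51 ± 0.80 on day 7 against Sham (adjusted p = 0.0144). Without Sham heart 2 the change of *Clec4e* was 5.63 on day 1 (adjusted p = 0.00052) and 4.17 on day 7 against Sham (adjusted p = 0.003). Without Day 7 AMI heart 4 the day 7 change against Sham was 1.54 (adjusted p = 0.0785) and its call was lost, while that from day 1 to day 7 was -2.43 and called (adjusted p = 0.00342). The latter was also called without Day 1 AMI heart 4 (-1.65, adjusted p = 0.0463). With all hearts it was called with no filter (-1.47, adjusted p = 0.0253), 2 groups only (-1.46, adjusted p = 0.0463) and a replicate block (-1.65, adjusted p = 0.0453). On limma's log2(TPM + 0.1) scale it was called too (-1.54). On log2(TPM + 1) the day 7 change of *Clec4e* against Sham was 0.68 and not called.

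The summed level of 7 neutrophil markers moved in a similar order, with 2.77 to 58.2 CPM in Sham, 47.0 to 166 CPM in Day 1 AMI and 8.15 to 39.0 CPM in Day 7 AMI hearts. Of 6 neutrophil markers tested 3 were called higher on day 1 than in Sham and 4 were called lower on day 7 than on day 1. The summed level of monocyte and macrophage markers was 196 to 275, 413 to 634 and 615 to 939 CPM in the same 3 groups, with 6 of 8 identifiers called higher, *Itgam* standing on 2 of them, on day 1 and 7 on day 7 against Sham. Of all genes tested 7.79% were called higher on day 1 and 15.3% on day 7 against Sham, and 2.69% were called lower from day 1 to day 7. The part of either cell type in the lectin changes was not tested.

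*Clec4d* and *Clec4e* lie beside each other on chromosome 6, and their upstream sequences are shown because they had the highest rises on day 1 among C-type lectins. *Clec4d* is on the plus strand at chr6:123261857-123262106 and *Clec4e* on the minus strand at chr6:123289872-123290121, with capitals as before.
Clec4d: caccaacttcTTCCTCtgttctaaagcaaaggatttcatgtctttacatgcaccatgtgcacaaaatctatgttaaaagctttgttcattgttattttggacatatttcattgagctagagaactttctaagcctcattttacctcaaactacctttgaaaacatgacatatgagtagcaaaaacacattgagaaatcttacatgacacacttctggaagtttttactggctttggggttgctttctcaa
Clec4e: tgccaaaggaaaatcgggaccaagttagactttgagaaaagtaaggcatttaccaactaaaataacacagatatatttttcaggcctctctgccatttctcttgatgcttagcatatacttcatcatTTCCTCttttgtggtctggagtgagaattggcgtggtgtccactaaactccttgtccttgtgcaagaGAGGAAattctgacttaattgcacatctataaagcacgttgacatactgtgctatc
*Clec4d* holds 1 PU.1-type match, which begins 240 bases before its start, and *Clec4e* holds 2, at 123 and 56 bases before its start. The C/EBP-type letters TTGCNNAA, searched on both strands, occur once in the *Clec4e* window and not in that of *Clec4d*, and in 9.55% of all windows.

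*Clec4n* encodes Dectin-2, a receptor for mannans that pairs with FcRγ. Its level was 1.88, 2.38, 0.679 and 0.908 CPM in Sham, 5.93, 6.56, 5.23 and 6.34 CPM in Day 1 AMI and 7.37, 5.56, 4.98 and 7.01 CPM in Day 7 AMI hearts, a log2 fold change of 2.03 ± 0.29 on day 1 (adjusted p = 0.00014) and 2.08 ± 0.29 on day 7 against Sham (adjusted p = 2.98e-05). The 2 infarcted groups overlapped and lay above all Sham hearts. *Clec5a*, the DAP12-coupled receptor MDL-1 of monocytes and neutrophils, stood at 1.30, 1.72, 1.21 and 0.861 CPM in Sham, 5.54, 9.01, 4.81 and 4.45 CPM in Day 1 AMI and 5.49, 3.55, 3.58 and 5.10 CPM in Day 7 AMI hearts. It rose by 2.21 ± 0.28 on the log2 scale on day 1 (adjusted p = 6.17e-05), and its change from day 1 to day 7, -0.42 ± 0.24, was not called.

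*Clec7a*, the β-glucan receptor Dectin-1, had 2.35, 1.40, 2.62 and 4.02 CPM in Sham, 7.84, 7.04, 3.79 and 4.48 CPM in Day 1 AMI and 6.93, 8.65, 8.30 and 10.5 CPM in Day 7 AMI hearts. Sham heart 4 lay above Day 1 AMI heart 3, and all Day 7 AMI hearts lay above all Sham hearts. Its log2 fold change was 1.16 ± 0.29 on day 1 (adjusted p = 0.00598) and 1.73 ± 0.29 on day 7 against Sham (adjusted p = 0.000149). The day 1 change of *Clec7a* was 0.94 without Sham heart 2 and 0.98 without Day 1 AMI heart 1, under the 2-fold minimum in both cases.

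The remaining ITAM-type lectins did not rise on day 1. *Clec9a*, the actin-sensing receptor DNGR-1 of cross-presenting dendritic cells, ranged from 2.45 to 3.78 CPM in Sham, 1.84 to 2.57 CPM on day 1 and 3.36 to 5.61 CPM on day 7. It rose between day 1 and day 7 by 1.03 ± 0.20 on the log2 scale (adjusted p = 0.000819), which was just past 2-fold, and was 0.90 to 0.99 without Day 1 AMI heart 1 or 4 or Day 7 AMI heart 3 or 4. Of the 6 dendritic cell markers tested 1 was called higher in that comparison, beside 8.55% of all genes tested. The sum of these markers was 20.9 to 22.8 CPM on day 1 and 29.2 to 34.5 CPM on day 7. *Clec9a* and its neighbour *Clec1b* overlap on the same strand over 5.59% of the exon bases of *Clec9a*. *Clec1b*, the platelet podoplanin receptor CLEC-2, ranged from 0.622 to 1.36 CPM in Sham, 0.425 to 0.746 CPM in Day 1 AMI and 0.812 to 1.26 CPM in Day 7 AMI hearts and was not called in any comparison.

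**Figure D3:**
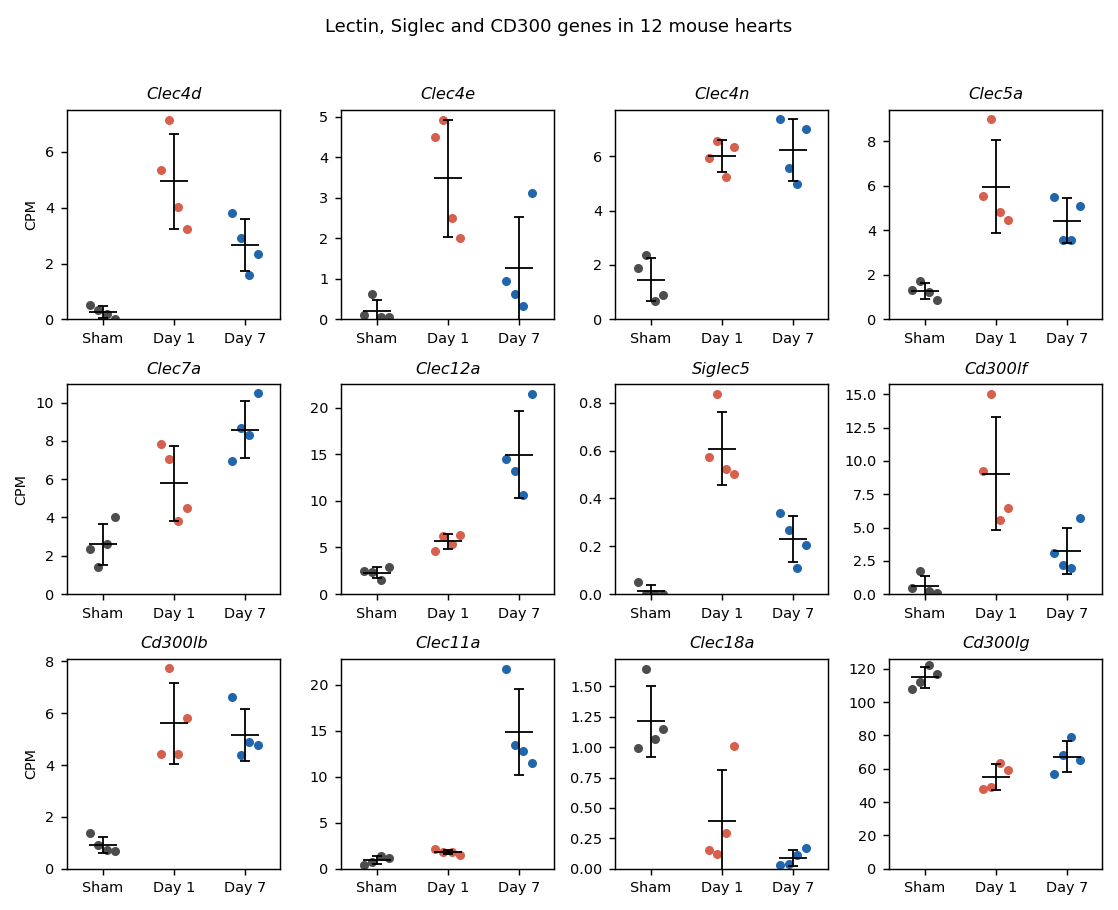
CPM (vertical axis, TMM-scaled) of 12 lectin, Siglec and CD300 genes in the hearts of the 3 groups, 1 point per heart, with the group mean and SD as a bar. *Clec4d*, *Clec4e*, *Siglec5* and *Cd300lf* have their highest mean on day 1, *Clec12a* and *Clec11a* on day 7, and *Clec18a* and *Cd300lg* in Sham.

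Of the 3 inhibitory lectins with an ITIM that were tested, 2 rose on day 1, where 7.79% of all genes tested were called higher. *Clec12a*, the uric acid receptor MICL of myeloid cells, was the only member called higher at both steps with all 12 hearts and the TMM scale. Its level was 2.5, 2.34, 1.46 and 2.92 CPM in Sham, 4.67, 6.27, 5.36 and 6.34 CPM in Day 1 AMI and 14.5, 13.2, 10.6 and 21.5 CPM in Day 7 AMI hearts, and none of the 3 groups overlapped. The log2 fold change was 1.30 ± 0.24 on day 1 (adjusted p = 0.000765), 1.40 ± 0.21 from day 1 to day 7 (adjusted p = 0.00014) and 2.70 ± 0.24, or 6.48-fold, on day 7 against Sham (adjusted p = 5.31e-07). *Clec4a2*, the inhibitory receptor DCIR, ranged from 0.728 to 1.77 CPM in Sham, 4.19 to 5.88 CPM on day 1 and 3.58 to 6.50 CPM on day 7. It rose by 1.79 ± 0.26 on the log2 scale on day 1 (adjusted p = 0.000148) and did not overlap with Sham at either time. *Clec12b* went the other way, from 0.526 to 1.27 CPM in Sham to 0.136 to 0.618 CPM on day 7, with overlap between the groups. Its fall of 1.17 ± 0.44 (adjusted p = 0.0315) was not called without Sham heart 1 or 2 or Day 7 AMI heart 1 or 4, where adjusted p was 0.0667, 0.127, 0.0812 and 0.0899, nor under library sizes alone. *Clec4a4*, the fourth ITIM lectin, had 1 count in 12 libraries.

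The upstream window of *Clec12a* is shown as that of the member that rose at both steps, on the plus strand at chr6:129349994-129350243. This window precedes the RefSeq start but lies inside the GENCODE gene model, which runs from 129342691 to 129365303.
Clec12a: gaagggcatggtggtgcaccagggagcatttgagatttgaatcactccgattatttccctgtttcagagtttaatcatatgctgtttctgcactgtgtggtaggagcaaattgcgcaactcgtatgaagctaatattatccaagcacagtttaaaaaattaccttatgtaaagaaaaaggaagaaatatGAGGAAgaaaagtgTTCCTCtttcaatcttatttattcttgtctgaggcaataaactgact
It holds 2 PU.1-type matches, at 61 and 47 bases before the RefSeq start, and 1 C/EBP-type match. It also holds 1 match to the AP-1-type letters TGANTCA, searched on both strands and found in 6.87% of all windows.

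Other lectins of the Clec4 and Clec10 families gave smaller changes. *Clec4a1* was at 6.05, 3.00, 2.72 and 2.68 CPM in Sham, 6.04, 7.13, 5.23 and 6.15 CPM in Day 1 AMI and 8.75, 9.81, 8.67 and 14.8 CPM in Day 7 AMI hearts. Sham heart 1 lay within the Day 1 AMI range, and every Day 7 AMI heart was above all others. Its log2 fold change of 0.77 ± 0.26 on day 1 was not called, and that of 1.55 ± 0.26 on day 7 was (adjusted p = 0.000124). The day 1 change of *Clec4a1* was 1.13 and called without Sham heart 1 (adjusted p = 0.00121), and it was also called with library sizes alone (1.07) and on the log2(TPM + 0.1) scale (1.14). *Clec4a3* rose by 1.19 ± 0.28 on day 1 (adjusted p = 0.00423) and by 1.77 ± 0.28 on day 7 against Sham (adjusted p = 9.14e-05), both on the log2 scale.

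*Clec10a*, the galactose-type lectin MGL1 that marks alternatively activated macrophages and dendritic cells, was not called in any comparison. It stood at 2.76, 4.48, 2.57 and 2.63 CPM in Sham, 3.52, 3.58, 2.91 and 4.38 CPM in Day 1 AMI and 3.24, 3.67, 2.95 and 4.56 CPM in Day 7 AMI hearts, and the ranges overlapped. The log2 fold change on day 7 against Sham was 0.20 ± 0.21. *Clec10a* shares 4.44% of its 75-base stretches with *Mgl2*, which belongs to the list of other lectin-fold receptors. *Clec4g*, a lectin of sinusoidal endothelium, ranged from 0.365 to 0.861 CPM in Sham and from 0.0597 to 0.421 CPM in Day 1 AMI hearts. Its fall of 1.26 ± 0.46 on the log2 scale (adjusted p = 0.0424) was kept in 2 of 8 fits that left out 1 heart of these groups, those without Sham heart 1 or Day 1 AMI heart 1, and adjusted p was 0.0501 to 0.137 in the others. The *Clec4g* call was also lost in 7 of 9 other alternatives, among them DESeq2 (adjusted p = 0.0519), no filter (0.0823), 2 groups only (0.0641) and the replicate block (0.0713). A gene on the opposite strand covers 5.93% of the exonic sequence of *Clec4g*, and the strand counted is not given in the sources used here. *Clec4f*, the Kupffer cell lectin, had 3 to 5 counts per Sham heart, 2 to 10 per Day 1 AMI heart and 0 to 3 per Day 7 AMI heart, and did not pass the filter. *Clec4b1* was not called, and *Clec4b2* had 1 count in all.

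The Clec2 family holds ligands of the NKR-P1 receptors of NK cells. *Clec2d*, the most abundant of them at 22.6 ± 4.97 TPM in Sham (SD, n = 4), was not called in any comparison, with log2 fold changes between -0.03 and 0.33. *Clec2i* rose from 0 to 0.534 CPM in Sham to 0.738 to 1.48 CPM on day 7, a log2 fold change of 2.92 ± 0.65 (adjusted p = 0.00137). Without Sham heart 3, the highest of its group, the *Clec2i* change was 5.08 on day 7 (adjusted p = 2.19e-05) and 4.02 on day 1. Its day 1 level of 0.327 to 0.803 CPM overlapped with Sham heart 3, and the day 1 call (1.86 ± 0.69, adjusted p = 0.0418) was kept without Sham heart 3 or Day 1 AMI heart 3 and lost without any other heart of the 2 groups (adjusted p 0.0641 to 0.111) and with the replicate block (adjusted p = 0.0754). *Clec2l* was 1.01 ± 0.33 on the log2 scale on day 7 against Sham (adjusted p = 0.0162), at the 2-fold limit, and was 0.84 to 0.98 without Sham heart 1 or 2 or Day 7 AMI heart 2 or 3. The *Clec2l* call was also lost by DESeq2 (0.99), with RLE factors (0.99), with 2 groups only and on the log2(TPM + 1) scale (0.64), each short of 2-fold. *Clec2e*, *Clec2f*, *Clec2g*, *Clec2h* and *Clec2j* did not pass the filter.

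Lectin-fold genes of endothelium and matrix did not follow the leukocyte receptors. *Clec11a*, a secreted growth factor for bone and blood precursors also called osteolectin, had the highest positive change of any member from day 1 to day 7. Its level was 0.417, 0.780, 1.36 and 1.15 CPM in Sham, 2.10, 1.85, 1.80 and 1.51 CPM in Day 1 AMI and 21.7, 13.4, 12.8 and 11.5 CPM in Day 7 AMI hearts. All groups were separate, and each Day 7 AMI heart was at or above 11.5 CPM. The log2 fold change was 3.03 ± 0.26 from day 1 to day 7 (adjusted p = 1.07e-06) and 4.00 ± 0.29, or 15.9-fold, on day 7 against Sham (adjusted p = 1.04e-07), while 0.96 ± 0.30 on day 1 fell short of 2-fold. Without Sham heart 3 or 4 or Day 1 AMI heart 4 the day 1 change of *Clec11a* was 1.20, 1.08 and 1.04 and was called. Fibroblast markers summed to 933 to 1180 CPM in Sham, 1370 to 1900 CPM in Day 1 AMI and 5390 to 10300 CPM in Day 7 AMI hearts. Of the 6, 5 were called higher on day 7 than on day 1, beside 8.55% of all genes tested. Their part in the rise of *Clec11a* was not tested.

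*Clec3b*, the plasminogen-binding protein tetranectin, was the highest member in Sham hearts at 66.8 ± 17.6 TPM. Its level was 44.3, 57.0, 40.5 and 34.6 CPM in Sham, 22.8, 21.1, 26.7 and 32.7 CPM in Day 1 AMI and 19.4, 13.6, 25.3 and 22.4 CPM in Day 7 AMI hearts, and on this scale no infarcted heart reached the lowest Sham heart. In TPM both infarcted groups overlapped with Sham, reaching 63.87 on day 1 and 53.35 on day 7 against a lowest Sham heart of 50.72. *Clec3b* fell by 1.13 ± 0.19 on the log2 scale on day 7 (adjusted p = 0.000179), and by 0.98 without Sham heart 2 and 0.98 without Day 7 AMI heart 2, under 2-fold. Under library sizes alone the *Clec3b* change was -0.74 and on the log2(TPM + 1) scale -0.58, neither of which was called.

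*Clec14a*, an endothelial receptor of sprouting vessels, was lowest on day 1. It stood at 25.9, 33.3, 26.8 and 24.8 CPM in Sham, 15.8, 14.5, 23.4 and 21.6 CPM in Day 1 AMI and 33.7, 36.2, 38.4 and 35.9 CPM in Day 7 AMI hearts, and none of the groups overlapped on this scale. In TPM Sham, at 5.97 to 8.96, overlapped with Day 1 AMI, at 4.55 to 7.16. The log2 fold changes of *Clec14a*, -0.56 ± 0.14 on day 1 (adjusted p = 0.00657) and 0.94 ± 0.14 from day 1 to day 7 (adjusted p = 0.000126), were both short of 2-fold. The latter was 1.06 and 1.01 and called without Day 1 AMI heart 3 or 4. With all hearts it was called with library sizes alone (1.07), on log2(TPM + 1) (1.07) and on log2(TPM + 0.1) (1.19). *Clec1a*, also endothelial, gave -0.64 ± 0.14 and 0.93 ± 0.14 in the same 2 comparisons, also without a call, the latter of *Clec1a* being 1.01 and called without Day 7 AMI heart 1. That *Clec1a* change was also called with library sizes alone (1.05) and on log2(TPM + 0.1) (1.10). Summed endothelial markers were 972 to 1140 CPM in Sham, 800 to 852 CPM in Day 1 AMI and 1220 to 1380 CPM in Day 7 AMI hearts. Of the 7, 1 was called higher on day 7 than on day 1 by edgeR, beside 8.55% of all genes tested, and 0 by DESeq2. Their part was not tested.

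*Clec18a* fell at each step, from 0.991, 1.64, 1.07 and 1.15 CPM in Sham to 0.153, 0.119, 0.294 and 1.01 CPM in Day 1 AMI and 0.0308, 0.0386, 0.111 and 0.170 CPM in Day 7 AMI hearts. Day 1 AMI heart 4 stayed at the Sham level, and 2 of the Day 7 AMI hearts were at 1 count. Its change was -3.73 ± 0.67 on the log2 scale on day 7 against Sham (adjusted p = 0.000249), a call kept with any 1 heart left out, -1.60 ± 0.53 on day 1 (adjusted p = 0.0267) and -2.13 ± 0.72 from day 1 to day 7 (adjusted p = 0.0256). The day 1 call of *Clec18a* was lost without Sham heart 2 or Day 1 AMI heart 1, 2 or 3, with adjusted p of 0.0703 to 0.0757. The later step was -1.08 (adjusted p = 0.161) without Day 1 AMI heart 4, and it was also not called without Day 7 AMI heart 1 (adjusted p = 0.0706) or 2 (adjusted p = 0.0666). With library sizes alone the day 1 change of *Clec18a* was -1.33 and not called (adjusted p = 0.0585). On log2(TPM + 1) the changes were -0.44 on day 1, -0.26 from day 1 to day 7 and -0.69 on day 7 against Sham, none called. On log2(TPM + 0.1) the later step was -1.01 and not called. *Clec16a*, a regulator of mitophagy rather than a receptor, stayed within 49.8 to 70.9 CPM in all 12 hearts. On this scale every Day 7 AMI heart, at 49.8 to 52.1 CPM, was below every other heart. Its log2 fold changes on day 7, -0.29 ± 0.08 against Sham (adjusted p = 0.00656) and -0.36 ± 0.08 against day 1 (adjusted p = 0.00256), were short of 2-fold. *Clec3a* did not pass the filter.

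Siglecs bind sialic acid, and most carry ITIMs. The row named *Siglec5* in the files is the mouse gene now called *Siglecf*, an inhibitory receptor of eosinophils and alveolar macrophages. It had 1 count in the 4 Sham libraries together, 15, 28, 16 and 16 counts in the Day 1 AMI hearts and 11, 7, 3 and 6 counts in the Day 7 AMI hearts. These are 0.574, 0.835, 0.523 and 0.504 CPM on day 1 and 0.339, 0.270, 0.111 and 0.204 CPM on day 7, without overlap between the 3 groups. The ratio to Sham was 52.3 on day 1, with a 95% counting interval of 9.11 to 2090, and 20 on day 7, with an interval of 3.3 to 819. The fitted change plotted for *Siglec5* against Sham depends on the prior count and is no bound. *Siglec5* fell from day 1 to day 7 by 1.37 ± 0.40 on the log2 scale (adjusted p = 0.0118). Of 6 eosinophil markers none passed the filter, *Epx*, *Prg2*, *Ear1*, *Ear6* and *Il5ra* never exceeded 3 counts in a library, and their sum was 0 CPM in Sham and at most 0.209 CPM after infarction.

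*Siglec1*, the macrophage adhesion receptor sialoadhesin, stood at 9.13, 12.3, 5.92 and 5.69 CPM in Sham, 14.9, 23.7, 15.5 and 16.1 CPM in Day 1 AMI and 20.5, 12.3, 13.7 and 19.3 CPM in Day 7 AMI hearts. Day 1 AMI heart 2 was above its group, and Day 7 AMI heart 2 was level with Sham heart 2. The gene rose by 1.08 ± 0.25 on the log2 scale on day 1 (adjusted p = 0.00333), but by 0.95 without Sham heart 3, 0.94 without Sham heart 4 and 0.90 without Day 1 AMI heart 2. On day 7 against Sham it was 0.99 ± 0.25 (adjusted p = 0.00322), just short of 2-fold, and was called at 1.03 to 1.25 without Sham heart 1 or 2 or Day 7 AMI heart 2 or 3. *Siglece*, an ITIM receptor of neutrophils and monocytes, had 0.835, 2.34, 0.776 and 1.05 CPM in Sham, 2.79, 2.69, 1.64 and 1.83 CPM in Day 1 AMI and 3.70, 2.20, 2.51 and 4.18 CPM in Day 7 AMI hearts. Sham heart 2 lay within the infarcted range, and the call on day 7 was 1.31 ± 0.34 (adjusted p = 0.00451). The day 1 change of *Siglece*, 0.81, was not called, and without Sham heart 2 it was 1.32 and called (adjusted p = 0.00442).

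*Siglecg*, an inhibitory receptor of B cells that binds CD24, was called in both comparisons of day 7, by 1.20 ± 0.33 against day 1 (adjusted p = 0.00878) and 1.61 ± 0.36 against Sham (adjusted p = 0.00152) on the log2 scale. Without Day 7 AMI heart 1 the change of *Siglecg* from day 1 was 0.93. On log2(TPM + 1) the changes were 0.29 from day 1 and 0.46 against Sham, and neither was called. On log2(TPM + 0.1) that from day 1 was 0.77 and not called. Counts of *Siglecg* were low, at 6 to 12 per Sham heart, 9 to 18 per Day 1 AMI heart and 17 to 54 per Day 7 AMI heart. B cell markers summed to 8.50 to 18.4 CPM in Sham, 9.11 to 14.5 CPM in Day 1 AMI and 24.7 to 53.8 CPM in Day 7 AMI hearts. Of the 6, 1 was called higher on day 7 than on day 1 (8.55% of all genes tested). On day 7 against Sham 2 were called higher (15.3% of all genes tested), and their part was not tested. *Siglech*, the plasmacytoid dendritic cell receptor, did not pass the filter, at 1 to 7 counts per Sham heart, 2 to 5 per Day 1 AMI heart and 9 to 14 per Day 7 AMI heart. Of 4 plasmacytoid dendritic cell markers tested 1 was called higher on day 1 (7.79% of all genes) and 2 on day 7 against Sham (15.3% of all genes). *Siglec15* had no counts.

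CD300 receptors bind lipids such as phosphatidylserine and ceramide on dying cells, and the family holds both signs of signal. *Cd300lf*, an ITIM receptor with high affinity for ceramide and phospholipids, stood at 0.469, 1.72, 0.194 and 0.0478 CPM in Sham, 9.22, 15, 5.53 and 6.43 CPM in Day 1 AMI and 3.11, 2.20, 1.96 and 5.68 CPM in Day 7 AMI hearts. Infarcted hearts were all above Sham heart 2, itself well above the other Sham hearts. *Cd300lf* rose by 3.81 ± 0.61 on the log2 scale on day 1 (adjusted p = 0.000308), a 14.1-fold rise, and fell by 1.48 ± 0.50 from day 1 to day 7 (adjusted p = 0.0258). Without Sham heart 2 the rise of *Cd300lf* on day 1 was 5.26 (adjusted p = 8.11e-05). The later fall was not called by DESeq2 (adjusted p = 0.108) or without Day 1 AMI heart 2 (-1.12, adjusted p = 0.0936) or Day 7 AMI heart 1, 2 or 3 (adjusted p 0.0516 to 0.0717).

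*Cd300lf* is shown for the rise it shared with the DAP12-coupled *Cd300lb* in the same gene cluster. Its upstream window is on the minus strand at chr11:115133993-115134242.
Cd300lf: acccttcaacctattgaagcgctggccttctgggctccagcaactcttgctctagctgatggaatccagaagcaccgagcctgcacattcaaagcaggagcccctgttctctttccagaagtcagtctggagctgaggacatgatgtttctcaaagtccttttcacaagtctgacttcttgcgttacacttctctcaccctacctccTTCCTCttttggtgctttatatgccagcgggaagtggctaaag
It holds 1 PU.1-type match, 43 bases before the start, and the window of *Cd300lb* holds none.

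*Cd300lb*, an activating partner of DAP12, had 1.36, 0.904, 0.728 and 0.669 CPM in Sham, 4.44, 7.73, 4.42 and 5.83 CPM in Day 1 AMI and 6.63, 4.40, 4.87 and 4.76 CPM in Day 7 AMI hearts. The 2 infarcted groups overlapped and were both well above Sham, with log2 fold changes of 2.62 ± 0.26 (adjusted p = 1.5e-05) and 2.5 ± 0.26 (adjusted p = 2.29e-06). *Cd300c2*, an activating member of the family, was called higher on both days, by 1.95 ± 0.28 (adjusted p = 0.000139) and 2.83 ± 0.28 (adjusted p = 1.35e-06). Its change from day 1 to day 7, 0.88, was not called, but was without Day 1 AMI heart 2 (1.03) or Day 7 AMI heart 2 (1.01). In TPM *Cd300c2* was eighth among the members on day 7, at 16.4.

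*Cd300a*, an ITIM receptor for phosphatidylserine, was at 1.62, 2.18, 3.30 and 2.49 CPM in Sham, 4.70, 6.12, 3.63 and 4.54 CPM in Day 1 AMI and 8.44, 6.45, 8.12 and 7.55 CPM in Day 7 AMI hearts. The groups did not overlap, and each step was short of 2-fold (0.99 ± 0.21 and 0.69 ± 0.20), while day 7 against Sham was called at 1.67 ± 0.21 (adjusted p = 1.14e-05). The day 1 change of *Cd300a* was called, at 1.00 to 1.18, without Sham heart 3 or 4 or Day 1 AMI heart 3 or 4. *Cd300ld*, an activating FcRγ-coupled receptor, stood at 7.98, 5.50, 3.44 and 4.26 CPM in Sham, 8.37, 11.3, 8.90 and 8.61 CPM in Day 1 AMI and 11, 12.1, 9.92 and 12.8 CPM in Day 7 AMI hearts. It was called on day 7 against Sham at 1.11 ± 0.21 (adjusted p = 0.000334), and gave 0.95 without Sham heart 3. *Cd300e* did not pass the filter, at 0 to 4 counts per Sham heart, 4 to 9 per Day 1 AMI heart and 16, 2, 4 and 36 per Day 7 AMI heart.

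*Cd300lg*, nepmucin, is the endothelial member of the family and was lower after infarction. Its level was 108, 112, 122 and 117 CPM in Sham, 47.8, 48.8, 63.4 and 59.5 CPM in Day 1 AMI and 56.7, 68.1, 78.9 and 65.0 CPM in Day 7 AMI hearts, and on this scale every infarcted heart was below every Sham heart. In TPM the Day 7 AMI hearts reached 58.35 and overlapped with Sham, whose lowest heart was at 52.23. *Cd300lg* fell by 1.06 ± 0.11 on the log2 scale on day 1 (adjusted p = 2.27e-05) and was -0.77 ± 0.11 on day 7 against Sham (adjusted p = 3.98e-05), short of 2-fold. The day 1 change of *Cd300lg* was just short of 2-fold without Day 1 AMI heart 1, and it was -0.79 under library sizes alone and -0.75 on the log2(TPM + 1) scale, none of them called. Of 7 endothelial markers 0 were called on day 1 by edgeR and 0 by DESeq2, 4 were lower at an unadjusted p below 0.05, and the median log2 fold change of the list was -0.30.

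Per transcript length, the order of the members changed with infarction. In Sham hearts *Clec3b* (66.8 ± 17.6 TPM, SD, n = 4) and *Cd300lg* (60.5 ± 6.17 TPM) led and did not differ beyond their spread, followed by *Fcer1g* (27.3 ± 11.5), *Clec16a* (25.3 ± 2.36) and *Clec2d* (22.6 ± 4.97), which overlapped with each other. On day 7 *Fcer1g* (155 ± 47.4 TPM) was above all others in its lowest heart, and *Cd300lg* (50.4 ± 6.76), *Fcgr3* (49.2 ± 12.4), *Clec3b* (44.3 ± 11), *Clec2d* (40.4 ± 5.42) and *Fcgr2b* (36.4 ± 8.05) followed with overlapping ranges. The number of members with a group mean of at least 10 TPM was 6 in Sham, 8 on day 1 and 16 on day 7. The summed TPM of all members ran from 236 to 341 in Sham, 372 to 506 on day 1 and 492 to 749 on day 7. All genes tested shifted upward in TPM as well. Against Sham their median log2 change was 0.23 on day 1 and 0.44 on day 7 with log2(TPM + 1). With log2(TPM + 0.1) it was 0.31 and 0.57. *Clec14a*, for example, went from 7.0 to 13.3 TPM on day 7 with an uncalled edgeR change of 0.38. The part of that shift in these numbers and sums was not tested.

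**Figure D4:**
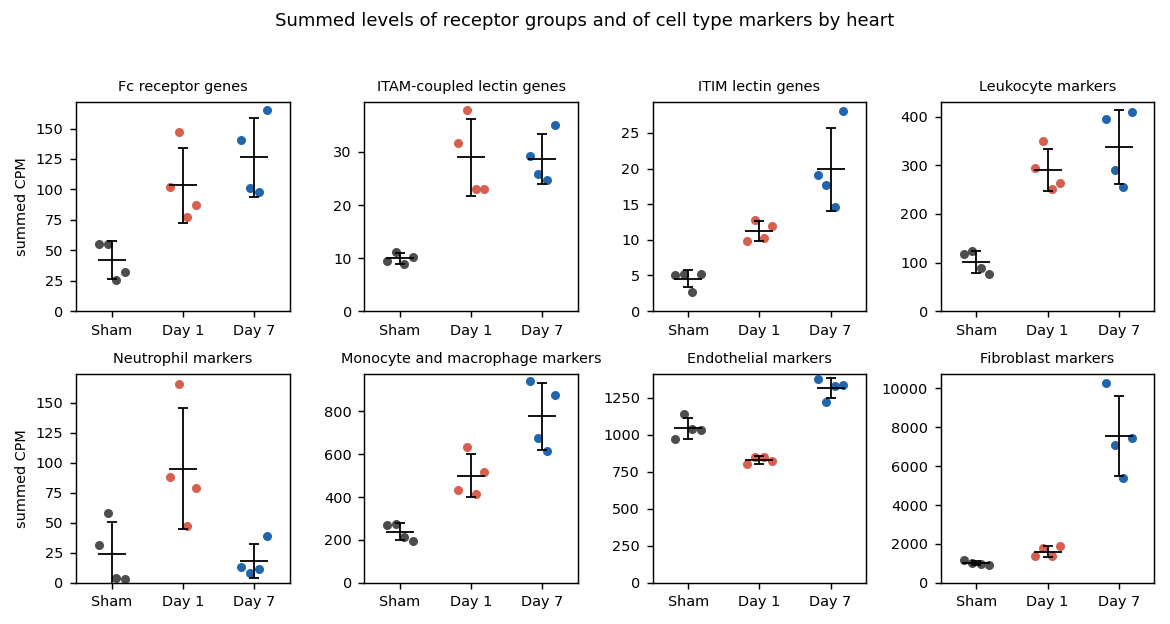
Summed CPM (vertical axis, TMM-scaled) of the Fc receptor, ITAM-coupled lectin and ITIM lectin genes and of 5 lists of cell type markers in each heart, with the group mean and SD as a bar. ITAM-coupled lectins reach 23.1 to 38.0 CPM on day 1 and 24.7 to 35.0 CPM on day 7, against 8.83 to 11.2 CPM in Sham, ITIM lectins are highest on day 7, and neutrophil markers are highest on day 1.

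Many members are neighbours in the genome. On chromosome 6 of GRCm38 the Clec4 cluster runs from *Clec4a1* (122921848 to 122934619, plus strand) to *Clec4e* (123281789 to 123289870, minus strand). Within it *Clec4d* (123262111 to 123275265) and *Clec4e* rose by 4.23 and 3.96 on day 1, *Clec4n* and *Clec4a2* by 2.03 and 1.79, and *Clec4b1* was at -0.62 without a call. The second chromosome 6 cluster holds *Clec12a* (129342691 to 129365303, plus strand), which rose, next to *Clec12b* (129375515 to 129385874, minus strand), which did not. On chromosome 1 *Fcgr2b*, *Fcgr4*, *Fcgr3* and *Fcer1g* lie between 170958617 and 171234365, and all 4 were called higher on both days. Of all genes tested 7.79% were called higher on day 1 and 15.3% on day 7 against Sham. On chromosome 11 the cluster from *Cd300a* (start 114890041) to *Cd300lf* (end 115133992) held 5 members tested. All 5 were called higher on day 7 than in Sham, beside 15.3% of all genes tested. *Cd300lg* lies apart from this cluster at 102041509 to 102055620. *Cd300ld3*, *Cd300ld4* and *Cd300ld5* share 81.5% to 100% of their 75-base stretches with other genes, so their counts of 0 to 7 per heart are uncertain.

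Downstream partners of the ITAM receptors rose in part. Of all genes tested, 7.79% were called higher on day 1, 8.55% from day 1 to day 7 and 15.3% on day 7 against Sham. Of 13 genes tested among ITAM adaptors and the Syk-CARD9 pathway 6 were called higher on day 1, 9 on day 7 against Sham and 1 from day 1 to day 7, and the list includes *Fcer1g* itself. The adaptor *Tyrobp* rose by 1.77 ± 0.23 on day 1 (adjusted p = 8.52e-05) and *Card9* by 1.42 ± 0.29 (adjusted p = 0.0017), whereas *Syk* was 0.93 ± 0.11 and *Bcl10* 0.21 ± 0.10, neither called. Of 6 Src-family kinases 4 were called higher on both days, led on day 1 by *Fgr* at 3.42 ± 0.51 (adjusted p = 0.00019). The ITIM phosphatases *Ptpn6* and *Inpp5d* rose by 1.61 ± 0.21 (adjusted p = 8.4e-05) and 1.10 ± 0.16 (adjusted p = 0.000167) on day 1, and the broadly expressed *Ptpn11* and *Inppl1* were not called. The list medians on day 1 were 0.93, 1.90 and 0.53, beside -0.01 for all genes tested.

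Related receptors outside the naming rule held both called and uncalled genes. Of all genes tested, 7.79% were called higher on day 1, and 15.3% higher and 5.88% lower on day 7 against Sham. Of 5 other Fc receptor and antibody transport genes tested 0 were called on day 1 by edgeR and 0 by DESeq2 (1 was higher and 1 lower at an unadjusted p below 0.05), and 3 were called higher on day 7 against Sham, among them *Fcrls* at 2.39 ± 0.27 (adjusted p = 4.32e-06). Of 17 other lectin-fold receptors tested 4 were called higher on day 1, and 10 higher and 1 lower on day 7 against Sham. The share called lower was close to that of all genes. *Olr1*, the oxidised LDL receptor LOX-1, led with 4.46 ± 0.71 on day 1 (adjusted p = 0.000285), and *Mgl2* was the gene called lower on day 7, at -1.25 ± 0.21 (adjusted p = 0.000167). Both other sialic acid-binding lectins tested, *Cd22* and *Cd33*, were called higher on day 7 against Sham, at 1.46 ± 0.34 and 1.35 ± 0.18. Whether a list's share differed between days was not tested.

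In all, 18 of the 58 members did not pass the filter, and the highest count of any of them in a library was 36. Of these 9 never exceeded 3 counts in a library, and 4, namely *Cd300ld5*, *Clec2h*, *Clec2j* and *Siglec15*, had no counts in any library. Those 9 were not detectable above the floor of 3 counts at this depth of whole heart RNA.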

How the data were processed

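Total RNA of 12 whole hearts, 4 per group, was sequenced. According to the submitters' processing notes and the methods, reads were aligned with STAR 2.4.0j to the GRCm38 (mm10) mouse genome and genes were quantified with RSEM. The authors deposited raw counts, whole numbers per gene and library with no normalization, and TPM, which is scaled to transcript length and to a fixed sum per library, for the same 53801 identifiers. The tool behind the counts, its strand setting and its handling of multi-mapped reads are not given in the sources used here. No column of per-sample values was left unmapped, and other experiments of the study were not analysed here.

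Groups and replicate numbers were taken from the sample titles. Counts were filtered with filterByExpr, scaled by TMM and fitted for all 3 groups at once with edgeR 4.0.16 (glmQLFit and glmQLFTest, R 4.3.3), with Benjamini-Hochberg adjustment over the 15306 genes kept. Standard errors were derived from the quasi-likelihood statistic. Ratios within a heart were compared by two-sided exact permutation tests. Alternatives were DESeq2 1.42.0, limma 3.58.1 on log2(TPM + 1) and log2(TPM + 0.1), RLE factors, library sizes alone, no filter, 2 groups only, a replicate block, no fold change minimum, and each heart left out. The TPM form of the ratios was added after the data had been seen. On counts simulated for Day 1 AMI against Sham over 15306 genes, with 200 genes changed by 2 on the log2 scale, edgeR recovered 200 with 3 false calls. Recovery of smaller changes, such as those close to the 2-fold minimum, was not tested. No libraries of a group agreed within sampling noise (chi-square per degree of freedom at least 9.41). Gene positions and shared 75-base stretches came from GENCODE M21 (GRCm38), and upstream sequences from RefSeq (GRCm38.p6), with the first window listed for a gene.

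Values in every heart are given for the Fc receptors, for a listed set of lectins, Siglecs and CD300 receptors, and for the 3 members with the largest called change in each comparison, except that *Clec4f*, *Siglech* and *Cd300e*, which did not pass the filter, are given mostly as ranges of counts. Markers, pathway lists and members were chosen with earlier results of these data known.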

Additional observations from a re-analysis of the deposited data

Results flagged for a closer look

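In 8 of 120 groups of 4 hearts 1 value lay apart from the other 3 by more than Dixon's 95% critical value, where chance gives about 1 in 20 groups. Day 1 AMI heart 2 was the highest of its group for *Siglec1* (23.7 CPM) and *Fcgr4* (8.24 CPM). Sham heart 2 was the highest for *Clec10a* (4.48 CPM) and *Clec4e* (0.616 CPM). Sham heart 1 was the highest for *Clec4a1* (6.05 CPM) and for *Siglec5* (0.0522 CPM, which is 1 count). Sham heart 3 was the highest for *Clec2i* (0.534 CPM) and the lowest for *Clec4a2* (0.728 CPM).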

How the results depend on the processing

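The number of members called higher than in Sham stayed within 1.5 times of 19 (14 to 24) on day 1 and of 25 (21 to 27) on day 7 under the alternatives tried and with any 1 heart left out; 14 was without Day 1 AMI heart 2. Members called lower on day 1 (3) numbered 0 with library sizes alone, 7 with no fold change minimum, 0 on log2(TPM + 1), 1 on log2(TPM + 0.1), and 1 to 3 with a heart left out (1 without Sham heart 2 or Day 1 AMI heart 1, 2 or 3). Members called higher from day 1 to day 7 (4) numbered 9 with library sizes alone, 11 with no fold change minimum and 9 on log2(TPM + 0.1). Members lower in that comparison (3) numbered 1 and 1 on the TPM scales and 1 to 4 with a heart left out (1 without Day 7 AMI heart 2). Members lower on day 7 than in Sham (3) numbered 1 with library sizes alone, 5 with no fold change minimum, 0 and 1 on the TPM scales, and 1 to 3 with a heart left out (1 without Sham heart 2). *Clec16a*, -0.29 on day 7 against Sham, reversed to 0.110, 0.124 and 0.129 with library sizes alone, log2(TPM + 1) and log2(TPM + 0.1). The cause of these changes was not tested beyond the shift of the median gene given above.

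Of the calls of single members, 12 of 22 on day 1, 2 of 7 from day 1 to day 7 and 19 of 28 on day 7 against Sham were kept under every alternative, and none of the called values changed sign. Replicate numbers did not pair the hearts: deviations of same-numbered hearts correlated between -0.244 and 0.229, with 4 of 12 pairs over 0.1, and 5 of 24 best matches were with the same number. With the replicate block 18 and 2 members were called higher and lower on day 1, 4 and 4 from day 1 to day 7, and 26 and 3 on day 7 against Sham. Depth limits the members with few counts, *Siglec5* above all.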
